A study of Mus musculus with 18 samples.

Results

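Cyr61, Ctgf, Tgfb2, F3, Axl, Crim1, Ajuba and Ankrd1 are 8 genes known as direct outputs of the transcriptional co-activator YAP and its DNA-binding partners, the TEAD factors. They were taken by name from the gene table (Cyr61 and Ctgf are called Ccn1 and Ccn2 in newer annotation), and all 8 were found among its 46078 genes. All 8 also passed the filter on low counts that left 13433 protein-coding genes for testing.

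The libraries came from mouse embryonic stem cells (E14 line, 129 background, wild type) held for 24 h in medium with serum and LIF, the cytokine that maintains self-renewal. The cells sat on StemBond hydrogels, polyacrylamide gels that hold their fibronectin coat through the co-factor AHA (6-acrylamidohexanoic acid). Soft gels had a stiffness of 750 Pa and stiff gels one of 160 kPa, and each was made with 16 (low), 48 (mid) or 80 mM (high) AHA, which sets how densely fibronectin is tethered. Each of the 6 combinations had 3 total RNA libraries, and 1 soft high AHA library (replicate 1) was left out of the fits because spike-in RNA took 1.37% of its counts against 0.607% to 0.725% elsewhere. No agent other than AHA and no genetic change distinguished the groups, and all 6 shared line, medium, coat and time. The labels do not say whether replicates were separate cultures, so the p-values measure only the spread between these libraries.

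YAP shuttles between cytoplasm and nucleus. The Hippo kinases LATS1 and LATS2 phosphorylate it and keep it out of the nucleus, while spreading on a rigid matrix and tension in the actin cytoskeleton are known to favour its nuclear entry. There it binds TEAD proteins and switches on genes for secreted matrix-associated proteins, receptors, and feedback regulators of Hippo signalling itself. Pluripotent cells express YAP and several TEADs.

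The sequences before the start sites of these genes are shown because TEAD proteins bind the letters GGAATG, which read CATTCC on the other strand. RefSeq windows (GRCm38.p6) of the 250 bases before the start were at hand for 7 of the 8 genes. Ctgf had no entry. Searched on both strands, 5 of the 7 windows held GGAATG (Cyr61, Axl, Ajuba, Crim1 and Ankrd1), against 12.6% of all 32851 windows of that length. Ajuba and Ankrd1 each held it 2 times, as did 1.02% of all windows. The letters TGANTCA of the AP-1 factors, also searched on both strands, occurred only in the window of F3, 2 times, and in 6.75% of all windows. The SRF CArG box was in none of the 7 and in 1.47% of all. Matches of the different motifs did not overlap. The Ankrd1 window lies wholly (250 bases) under Ankrd1 exons of GENCODE M21, whose start is farther upstream than that of RefSeq. A match of letters describes the window and is not evidence of binding. The windows of the genes with no overlap between soft and stiff libraries (Cyr61 and Axl, below) are given whole, 5′ to 3′ in the direction of the gene, with the TEAD letters in capitals. The Cyr61 window lies on the minus strand at chr3:145649986-145650235 and its CATTCC begins 103 bases before the start. The Axl window lies on the minus strand at chr7:25788734-25788983 and its GGAATG begins 233 bases before the start.
Cyr61: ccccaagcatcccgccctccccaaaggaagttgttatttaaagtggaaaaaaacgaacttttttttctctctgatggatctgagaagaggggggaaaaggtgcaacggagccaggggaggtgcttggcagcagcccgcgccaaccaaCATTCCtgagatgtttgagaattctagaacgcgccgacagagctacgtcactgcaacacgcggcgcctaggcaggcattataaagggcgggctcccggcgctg
Axl: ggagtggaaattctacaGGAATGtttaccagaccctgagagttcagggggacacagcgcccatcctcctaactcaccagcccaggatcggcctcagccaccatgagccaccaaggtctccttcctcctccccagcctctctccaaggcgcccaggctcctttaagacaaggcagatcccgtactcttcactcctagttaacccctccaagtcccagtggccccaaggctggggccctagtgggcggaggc

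For the other genes with a match, 30 bases around each site are shown, with the TEAD or, for F3, the AP-1 letters in capitals. The Ajuba sites (minus strand, chr14:54577830-54577859 and chr14:54577808-54577837) begin 186 and 164 bases before the start, the Crim1 site (plus strand, chr17:78200157-78200186) 79 bases before it, and the Ankrd1 sites (minus strand, chr19:36120037-36120066 and chr19:36119950-36119979) 210 and 123 bases before it. The F3 stretch (plus strand, chr3:121723385-121723414) holds both AP-1 matches, which begin 146 and 135 bases before the start.
Ajuba site farther from the start: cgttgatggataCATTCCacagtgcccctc
Ajuba site nearer to the start: tgcccctccgcgCATTCCaactgtaaacaa
Crim1 site: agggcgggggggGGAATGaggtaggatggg
Ankrd1 site farther from the start: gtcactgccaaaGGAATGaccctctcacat
Ankrd1 site nearer to the start: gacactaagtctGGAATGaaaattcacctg
F3 sites: cgctgtTGAATCAcggtTGAGTCAcccctt

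Counts assigned to genes ran from 5850621 to 9290261 per library, and 68.4% to 72.7% of them fell on protein-coding genes. The level of a gene is its CPM, which sets its counts against those of all tested protein-coding genes of the library and applies the TMM factor. Sums over marker lists are set against all protein-coding counts and go without that factor. Differences are log2 fold changes of soft minus stiff with their standard error (SE), and calls were made at an adjusted p under 0.05 (edgeR quasi-likelihood test, Benjamini-Hochberg over all 13433 genes). The cells carried stem cell markers: Pou5f1, Sox2, Nanog, Esrrb, Zfp42 and Klf4 summed to 1602 to 1764 CPM in soft and 1423 to 1531 CPM in stiff libraries. In bulk RNA, fewer cells that express a gene and less of its RNA per cell cannot be told apart.

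The first comparison asked whether the genes differed between soft and stiff gels. Averaged over the 3 AHA concentrations, 6 of the 8 were called lower on soft gels (Cyr61, Axl, Tgfb2, Crim1, F3 and Ajuba) and none higher, where 8.63% of all tested genes were called in either direction and 4.85% were called lower. Ctgf and Ankrd1 were not called. The 8 genes were chosen with earlier results of these data known, so these shares are given as a description. The 8 fold changes ran from -0.69 to -0.11 with a median of -0.38, against a median of 0.0011 over all tested genes. At each AHA concentration on its own all 8 fold changes were below 0, as they were for 19.3% of all genes. In some fits with a library left out, Ctgf at mid AHA and Ankrd1, Tgfb2 and F3 at high AHA turned above 0.

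**Figure D1:**
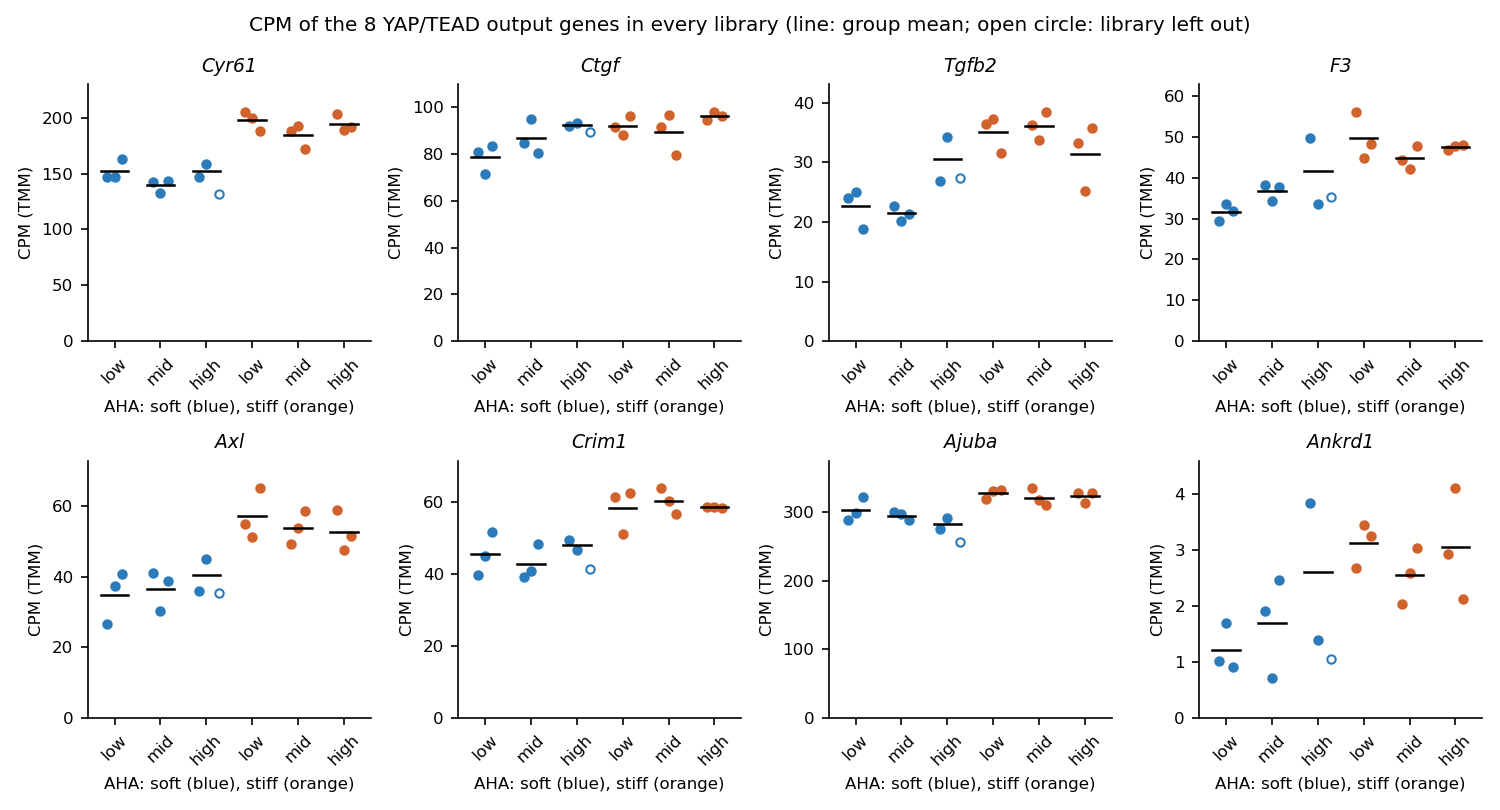
CPM (vertical axes, each from 0) of each gene in every library, by AHA concentration on soft (blue) and stiff (orange) gels. Lines are group means and the open circle is the soft high AHA library left out of the fits, scaled with all 18 libraries. For Cyr61 and Axl every filled soft point lies below every stiff point, whereas for Ctgf soft points reach 95 and stiff points go down to 79.8.

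The secreted matricellular proteins come first. Cyr61 (chromosome 3, 145646976 to 145649981, minus strand, GRCm38) encodes CCN1, a matrix-associated ligand of integrins. It measured 147, 147 and 163 CPM at low, 143, 133 and 143 at mid and 147 and 158 at high AHA on soft gels. On stiff gels it measured 205, 200.1 and 188 at low, 188, 192 and 172 at mid and 203, 189.5 and 192 at high AHA. The highest soft library (163) lay below the lowest stiff library (172), an order in which all soft libraries fell below all stiff ones for 0.871% of tested genes. The gene was 23.0% lower on soft gels (log2 fold change -0.38, SE 0.035, adjusted p = 1.58e-17). It fell by nearly the same amount at each concentration, by 0.38 (SE 0.058, adjusted p = 5.00e-07) at low, 0.40 (SE 0.059, adjusted p = 1.23e-07) at mid and 0.36 (SE 0.065, adjusted p = 0.000213) at high AHA. In the fit without soft high replicate 2 the value at high AHA was -0.30 (adjusted p = 0.0544). With replicate 1 out as well, that fit held 1 soft high library, which is assumed to vary like the libraries of the other groups, and the same holds of every fit without soft high replicate 2 or 3 given here. With replicate 2 left out in place of replicate 1 the value was -0.44 and the call was kept.

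Ctgf (chromosome 10, 24595442 to 24598683, plus strand) encodes CCN2, the close relative of CCN1. On soft gels it measured 80.8, 71.7 and 83.7 CPM at low, 84.7, 95 and 80.5 at mid and 91.9 and 93.1 at high AHA. On stiff gels the values were 91.7, 88.0 and 96.2 at low, 91.6, 96.6 and 79.8 at mid and 94.7, 98.0 and 96.3 at high AHA. Soft and stiff libraries overlapped widely, and only 1 soft library lay below every stiff one. The fold change was -0.11 (SE 0.046, 95% interval -0.20 to -0.018, adjusted p = 0.137), so that a fall as large as that of Cyr61 (95% interval -0.45 to -0.31) lay outside its interval. No test between the 2 genes was made. By concentration the fold changes were -0.23 (SE 0.079, adjusted p = 0.106) at low, -0.046 (SE 0.077) at mid and -0.057 (SE 0.085) at high AHA. Exons of Gm15270 on the opposite strand cover 23.2% of the Ctgf exons, and Gm15270 had 81 counts over the 17 libraries against 8223 for Ctgf.

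Tgfb2 (chromosome 1, 186622792 to 186705989, minus strand) encodes a ligand of the TGF-beta receptors. It measured 24.1, 25.1 and 18.9 CPM at low and 22.8, 20.2 and 21.4 at mid AHA on soft gels, and 26.8 and 34.3 at high AHA. On stiff gels it measured 36.4, 37.2 and 31.7 at low, 36.2, 33.7 and 38.5 at mid and 33.3, 25.3 and 35.7 at high AHA. With 3 libraries on each side, soft and stiff libraries did not overlap at low or at mid AHA. The share of all genes in that order was not counted. At high AHA, with 2 soft libraries, the soft and stiff libraries overlapped. The averaged fold change was -0.48 (SE 0.079, adjusted p = 8.46e-07). It was -0.63 (SE 0.13, adjusted p = 0.000681) at low and -0.75 (SE 0.13, adjusted p = 2.15e-05) at mid AHA, against -0.067 (SE 0.14, 95% interval -0.35 to 0.22, adjusted p = 0.934) at high AHA. The high AHA value ran from -0.25 to 0.11 when a library was left out. The interaction test of stiffness and AHA (edgeR) gave an adjusted p of 0.301 for Tgfb2, where 0.0298% of all genes were called.

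F3 (chromosome 3, 121723537 to 121735048, plus strand) encodes tissue factor, the membrane protein that starts blood coagulation. Its soft values were 29.3, 33.6 and 31.8 CPM at low, 38.2, 34.3 and 37.7 at mid and 49.6 and 33.5 at high AHA. Its stiff values were 56.1, 44.8 and 48.4 at low, 44.3, 42.1 and 47.8 at mid and 46.8, 47.7 and 48.1 at high AHA. All soft libraries but soft high replicate 2 (49.6) lay below every stiff library. F3 was 22.9% lower on soft gels (log2 fold change -0.37, SE 0.067, adjusted p = 6.84e-06). The fall was called at low AHA, at -0.67 (SE 0.11, adjusted p = 6.76e-06), and not at mid (-0.28, SE 0.11, adjusted p = 0.193) or high AHA (-0.18, SE 0.12, adjusted p = 0.666). The fold change at high AHA moved to -0.51 without soft high replicate 2 and to 0.064 without soft high replicate 3, and neither was called. With replicate 2 left out in place of replicate 1 it was -0.47 and called (adjusted p = 0.0126). The interaction test gave an adjusted p of 0.560 for F3.

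Axl (chromosome 7, 25757273 to 25788705, minus strand) encodes the receptor tyrosine kinase that binds GAS6. It measured 26.5, 37.3 and 40.8 CPM at low, 41.1, 30.2 and 38.7 at mid and 36.1 and 45.1 at high AHA on soft gels. On stiff gels it measured 55.1, 51.3 and 65.1 at low, 49.3, 53.9 and 58.7 at mid and 58.9, 47.7 and 51.6 at high AHA. As for Cyr61, every soft library (up to 45.1) lay below every stiff library (from 47.7). Axl was 31.9% lower on soft gels (log2 fold change -0.55, SE 0.070, adjusted p = 3.70e-09), the largest fall among the 6 called genes. By concentration it was -0.71 (SE 0.12, adjusted p = 1.33e-05) at low, -0.55 (SE 0.12, adjusted p = 0.00116) at mid and -0.40 (SE 0.13, adjusted p = 0.146) at high AHA, and the last became -0.46 (adjusted p = 0.0126) when all 18 libraries were used. Without soft high replicate 2 it was -0.24 (adjusted p = 0.694), without replicate 3 -0.56 (adjusted p = 0.0923), and -0.57 (adjusted p = 0.00200) when replicate 3 instead of replicate 1 was out.

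Crim1 (chromosome 17, 78200248 to 78376592, plus strand) encodes a transmembrane protein that binds bone morphogenetic proteins. It measured 39.5, 44.9 and 51.7 CPM at low, 39.0, 40.8 and 48.2 at mid and 49.5 and 46.5 at high AHA on soft gels. The stiff values were 61.3, 51.0 and 62.4 at low, 63.7, 60.3 and 56.7 at mid and 58.6, 58.5 and 58.3 at high AHA. A single pair broke the separation, as soft low replicate 3 (51.7) exceeded stiff low replicate 2 (51.0). Crim1 was 23.2% lower on soft gels (log2 fold change -0.38, SE 0.060, adjusted p = 1.96e-07), with -0.37 (SE 0.100, adjusted p = 0.0160) at low, -0.50 (SE 0.099, adjusted p = 0.000273) at mid and -0.28 (SE 0.11, adjusted p = 0.264) at high AHA. The call at low AHA was lost without soft low replicate 1 or 2 or stiff low replicate 1 or 3 (adjusted p = 0.253, 0.0738, 0.132 and 0.152), and Crim1 was called at high AHA with all 18 libraries (-0.35, adjusted p = 0.0275) and, at -0.42 (adjusted p = 0.0147), when soft high replicate 2 instead of replicate 1 was out. Exons of Fez2 on the opposite strand cover 2.05% of the Crim1 exons, and Fez2 had 2990 counts over the 17 libraries against 4824 for Crim1. The strand setting of the counting is not given in the sources used here.

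Ajuba (chromosome 14, 54567472 to 54577558, minus strand) encodes a LIM protein of cell junctions that binds and restrains LATS kinases. It measured 288, 298 and 322 CPM at low, 299.5, 296 and 289 at mid and 275 and 291 at high AHA on soft gels. On stiff gels it measured 319, 331 and 333 at low, 334, 317 and 309.9 at mid and 328, 313 and 328 at high AHA. The highest soft library (322) lay within the stiff range, and the other 7 soft libraries lay below it. Ajuba was 9.39% lower on soft gels (log2 fold change -0.14, SE 0.028, adjusted p = 6.42e-05), the smallest fall among the called genes. By concentration the call was made only at high AHA, at -0.20 (SE 0.052, adjusted p = 0.0374), while low AHA gave -0.11 (SE 0.047, adjusted p = 0.236) and mid AHA -0.12 (SE 0.047, adjusted p = 0.177). The call at high AHA was lost without soft high replicate 2 (-0.16, adjusted p = 0.395) or 3 (-0.24, adjusted p = 0.0807), without stiff high replicate 1 or 3 (both -0.19, adjusted p = 0.120 and 0.142), and with a looser count filter, all gene biotypes or only the compared groups (-0.19, -0.20 and -0.19, adjusted p = 0.0557, 0.0554 and 0.0940).

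Ankrd1 (chromosome 19, 36111961 to 36120099, minus strand) encodes an ankyrin repeat protein of muscle that shuttles to the nucleus. It was sparse, with 4 to 24 counts per library. Its soft values were 1.00, 1.70 and 0.908 CPM at low, 1.90, 0.716 and 2.45 at mid and 3.83 and 1.38 at high AHA. Its stiff values were 2.67, 3.45 and 3.24 at low, 2.03, 2.59 and 3.04 at mid and 2.92, 4.09 and 2.12 at high AHA. Below every stiff library lay 6 of the 8 soft ones, and soft high replicate 2 lay near the top of the stiff range. The fold change of -0.69 (SE 0.28, 95% interval -1.24 to -0.14) was the largest of the 8 and was not called (adjusted p = 0.111). Without soft high replicate 2 it was -1.01 (adjusted p = 0.0374), without replicate 3 -0.52 (adjusted p = 0.333), with all 18 libraries -0.80 (adjusted p = 0.0419), and -1.08 (adjusted p = 0.00634) when replicate 2 instead of replicate 1 was out.

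By concentration, 5 of the 8 genes were called lower on soft gels at low AHA (Cyr61, Axl, Crim1, Tgfb2 and F3), where 3.04% of all genes were called and 2.19% were called lower. At mid AHA 4 were called (Cyr61, Axl, Crim1 and Tgfb2), where 2.87% of all genes were called and 1.85% were called lower. At high AHA 2 were called (Cyr61 and Ajuba), where 0.856% of all genes were called, 0.432% were called lower and the soft group had 2 libraries. The median fold change of the 8 genes was -0.50 at low, -0.45 at mid and -0.19 at high AHA. The mid AHA median was -0.30 without soft mid replicate 2. The high AHA median was -0.31 with all 18 libraries, and -0.42 and -0.28 with soft high replicate 2 or 3 left out in place of replicate 1. The difference among concentrations was not called for any of the 8 (lowest adjusted p = 0.301, for Tgfb2). The high AHA count was 4 with all 18 libraries (Cyr61, Axl, Crim1 and Ajuba), where 339 of all tested genes were called against 115 in the main fit. The count was also 4 with soft high replicate 2 left out in place of replicate 1 (Cyr61, Crim1, F3 and Ajuba), where 392 of all genes were called. It was 0 with replicate 2 left out beside replicate 1, a fit that held 1 soft high library. The library left out measured 132 CPM for Cyr61, 89.3 for Ctgf, 27.3 for Tgfb2, 35.2 for F3, 35.5 for Axl, 41.3 for Crim1, 256 for Ajuba and 1.04 for Ankrd1.

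**Figure D2:**
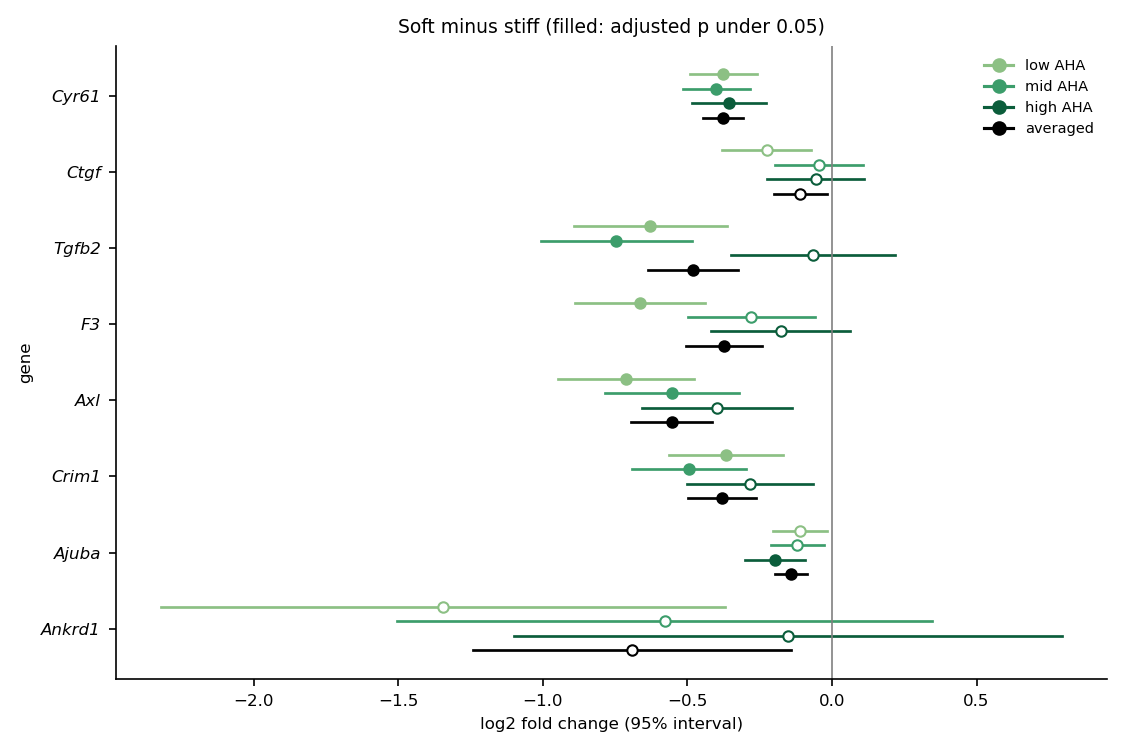
Log2 fold change of soft minus stiff (horizontal axis) for each gene at low, mid and high AHA and averaged over them. Bars are 95% intervals and filled points have an adjusted p under 0.05. All points lie to the left of 0, Cyr61 with nearly equal values from -0.40 to -0.36 and Tgfb2 with -0.63 and -0.75 at low and mid against -0.067 at high AHA.

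Markers of other cell types were read beside these differences. The 8 fibroblast markers (Col1a1, Col1a2, Col3a1, Thy1, Postn, Lum, Dcn and Pdgfrb) summed to 119 to 199.9 CPM in soft and 171 to 241 CPM in stiff libraries. Each had at least 3 counts in all, and Lum and Dcn fell under the count filter. Col1a1 alone was called (-0.49, SE 0.085, adjusted p = 0.00283), with 80.6 to 151 CPM in soft and 127 to 196 CPM in stiff libraries, and its part in the members' differences was not tested. The 6 primitive endoderm markers summed to 37.8 to 61.0 CPM in soft and 37.0 to 50.7 CPM in stiff libraries, with none called. The 4 trophoblast markers summed to 121 to 149.8 CPM in soft and 113 to 137 CPM in stiff libraries, with Tfap2c called higher (0.17, SE 0.043, adjusted p = 0.00238). The 2 other tested trophoblast markers were below 0 and not called. The 2 mesoderm markers (8.94 to 16.1 and 6.61 to 18.5 CPM) and the 2 neuroectoderm markers (15.3 to 22.3 and 10.6 to 18.6 CPM) had none called. Of the 6 stem cell markers 5 were called higher on soft gels, Nanog by 0.37 (SE 0.040, adjusted p = 5.12e-14) among them, and Pou5f1 was not (0.03, SE 0.025, adjusted p = 0.515).

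The second comparison asked whether the density of tethering changed the genes at one stiffness. No member was called in any of the 7 contrasts between AHA concentrations (edgeR), and 8 of their 56 tests had an unadjusted p under 0.05, beside 671 to 1157 of all 13433 genes in each contrast. Of all genes, 0.253% were called between high and low AHA on soft gels, 0.067% between high and mid on soft gels, 0.00744% in each of high against low and high against mid on stiff gels, 0.112% between high and low averaged over stiffness, and 0 between mid and low on soft or stiff gels (814 and 671 genes at an unadjusted p under 0.05, and 0 in both by DESeq2). These small shares moved with the libraries kept: the single gene called between high and low AHA on stiff gels became 10 without stiff high replicate 1, and the 15 genes averaged over stiffness became 5 without soft high replicate 2 and 65 without replicate 3. Between mid and low AHA on soft gels 0 became 7 without soft mid replicate 3. On soft gels 6 of the 8 fold changes of high minus low AHA were above 0, with a median of 0.22 against -0.00074 over all genes. The median was 0.14 without soft high replicate 2, and 0.057 or 0.12 when replicate 2 or 3 instead of replicate 1 was out. On stiff gels 1 of 8 was above 0 and the median was -0.037. The contrasts on soft and stiff gels share no library.

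Among the secreted factors and F3, high minus low AHA on soft gels gave 0.41 (SE 0.13, 95% interval 0.16 to 0.66, adjusted p = 0.175) for F3, 0.42 (SE 0.15, 0.13 to 0.72, adjusted p = 0.288) for Tgfb2 and 0.23 (SE 0.087, 0.062 to 0.40, adjusted p = 0.340) for Ctgf. On stiff gels the same contrast gave -0.077 (SE 0.11), -0.14 (SE 0.13) and 0.063 (SE 0.077). With 1 soft high library in the fit, F3 gave 0.66 (adjusted p = 0.00859) without soft high replicate 3 and 0.086 (adjusted p = 0.969) without soft high replicate 2, and it gave 0.12 with replicate 2 left out in place of replicate 1. Tgfb2 gave 0.25 without soft high replicate 3. Cyr61 was at -0.00076 (SE 0.066, 95% interval -0.13 to 0.13) on soft and -0.020 (SE 0.057) on stiff gels. Axl gave 0.20 (SE 0.14) and Crim1 0.079 (SE 0.11) on soft gels, while Ajuba gave -0.10 (SE 0.053, adjusted p = 0.608). When a library was left out, Axl ran from 0.044 (without soft low replicate 1) to 0.37 (without soft high replicate 2), Crim1 from -0.0087 to 0.18 and Ajuba from -0.14 to -0.056. Ankrd1 gave 1.14 (SE 0.54, 95% interval 0.066 to 2.22, adjusted p = 0.546) on 5 to 24 counts per library, and 0.19 without soft high replicate 2. The fibroblast marker Col1a1 gave 0.63 (SE 0.16, adjusted p = 0.202) in the same contrast on soft gels, and its part in these values was not tested. The 6 tested fibroblast markers ran from -0.95 to 1.05 there, 2 below and 4 above 0, and none was called.

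**Figure D3:**
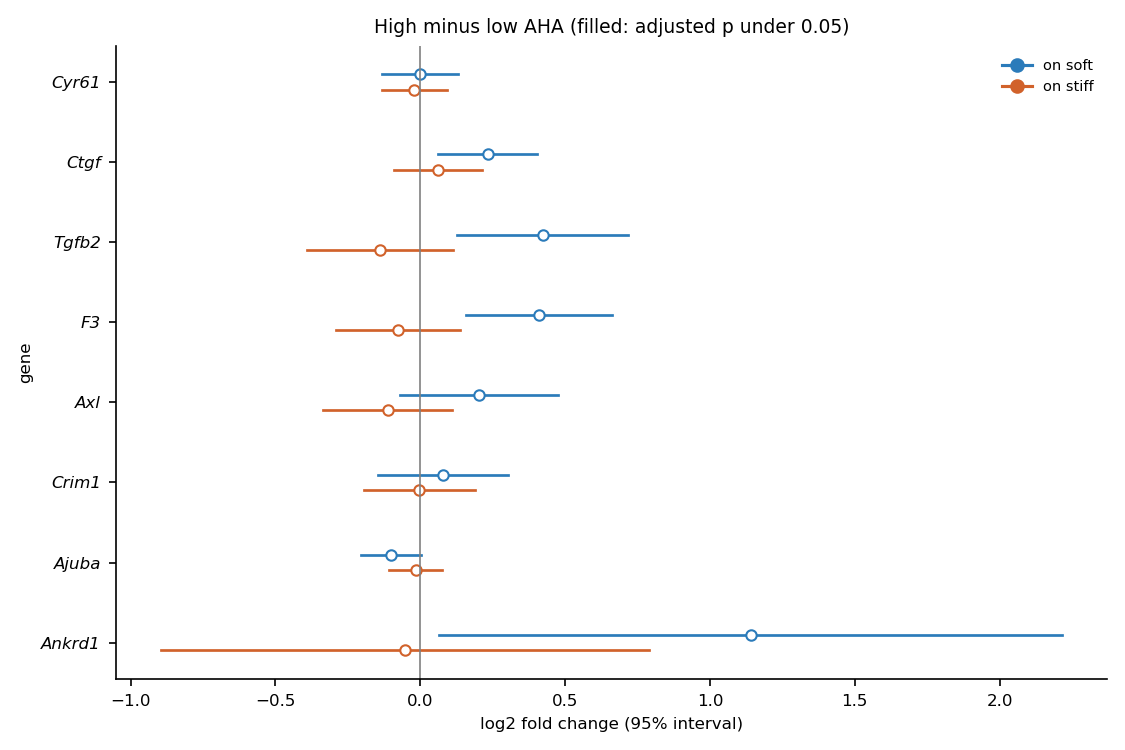
Log2 fold change of high minus low AHA (horizontal axis) for each gene on soft (blue) and stiff (orange) gels, with 95% intervals. All points are open, since none was called. On soft gels F3 and Tgfb2 sit at 0.41 and 0.42 and Cyr61 at -0.00076.

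Soft gels of high AHA were also set against stiff gels of low AHA, where both properties differ. In this contrast 3 of the 8 genes were called lower, Cyr61 by 0.38 (SE 0.065, adjusted p = 4.69e-05), Axl by 0.51 (SE 0.13, adjusted p = 0.0249) and Ajuba by 0.21 (SE 0.053, adjusted p = 0.0130), where 1.08% of all genes were called and 0.73% were called lower. Crim1 (-0.29, SE 0.11, adjusted p = 0.234), F3 (-0.25, SE 0.12, adjusted p = 0.405), Tgfb2 (-0.21, SE 0.14) and Ankrd1 (-0.21, SE 0.48) were not. When a library was left out, F3 ran from -0.58 (without soft high replicate 2) to -0.012 (without replicate 3), Tgfb2 from -0.38 (without replicate 3) to -0.030 (without replicate 2) and Ankrd1 from -1.15 to 0.31. Ctgf was level at 0.0059 (SE 0.086, 95% interval -0.16 to 0.17). The count of 3 became 1 without stiff low replicate 3, where 83 of all tested genes were called against 145 in the main fit. Without soft high replicate 2, which left 1 soft high library, Axl was at -0.35 and Ajuba at -0.17. The count was 5 with soft high replicate 2 left out in place of replicate 1, where 325 of all genes were called. There F3 (-0.55, adjusted p = 0.00188) and Crim1 (-0.43, adjusted p = 0.0135) were added. Only Cyr61 was called in this contrast in every leave-one-out fit (highest adjusted p = 0.0369).

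Per kilobase of exon, levels ranged over the 8 genes from 85.0 CPM per kb for Ajuba and 84.8 for Cyr61 through 31.1 for Ctgf, 16.6 for F3, 9.20 for Axl, 8.74 for Crim1 and 5.09 for Tgfb2 down to 0.816 for Ankrd1 (means of 17 libraries), against a median of 5.61 over all tested genes. Ajuba and Cyr61 were not told apart by this order, since Ajuba was higher in 8 of 17 libraries. On soft gels Cyr61 had 73.1 ± 4.60 and Ajuba 80.8 ± 3.72 CPM per kb (SD, n = 8), while on stiff gels Cyr61 had 95.2 ± 4.97 and Ajuba 88.8 ± 2.45 (SD, n = 9). Axl and Crim1 were likewise close, with Axl higher in 9 of 17 libraries. All other neighbours kept the same order in each of the 17 libraries. Cyr61 and Ajuba stood at the 97.0 percentile of the tested genes, Ctgf at 87.7, Tgfb2 at 47.6 and Ankrd1 at 13.8. These levels rest on exon lengths of GENCODE M21, which joins the exons of all transcripts of a gene.

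**Figure D4:**
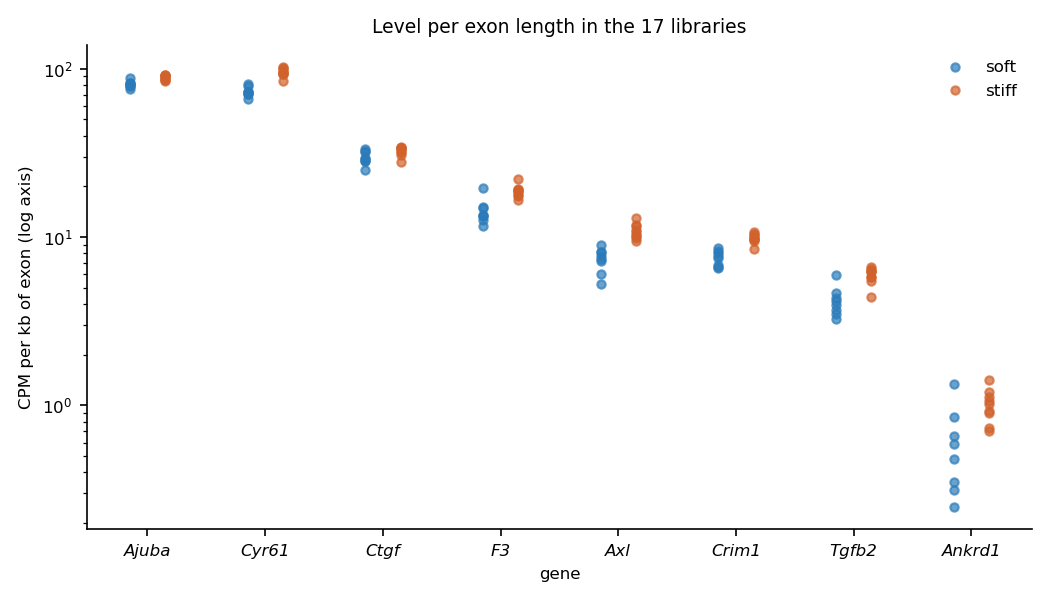
CPM per kb of exon (vertical log axis) of the 8 genes in the 17 libraries, soft (blue) and stiff (orange), ordered by their mean. Ajuba and Cyr61 lead near 85 CPM per kb and Ankrd1 is lowest at 0.816.

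The other genes of the YAP/TEAD output programme were read from a list of 16 (Lats2, Amotl2 and Ptpn14 are in the Hippo list too). Of these 15 were tested, 5 were called lower on soft gels averaged over AHA and none higher, and 13 of the 15 fold changes were below 0, with a median of -0.10 (over all tested genes 8.63% were called and 4.85% were called lower). The called genes were Amotl2, a scaffold that sequesters YAP (-0.22, SE 0.025, adjusted p = 3.81e-12), Dock5, a Rac exchange factor (-0.24, SE 0.036, adjusted p = 4.91e-08), Ptpn14, a phosphatase that binds YAP (-0.20, SE 0.033, adjusted p = 1.64e-06), Igfbp3, a secreted binder of insulin-like growth factors (-0.21, SE 0.037, adjusted p = 7.74e-06), and Lats2, the Hippo kinase (-0.38, SE 0.071, adjusted p = 2.38e-05). Lats2 measured 25.0 to 34.7 CPM in soft and 32.8 to 42.9 CPM in stiff libraries, and 42.4% of its exons lie under exons of Gm49361 on the same strand, so its counts are uncertain. Igfbp3 was the 1 of these 15 genes called between high and low AHA on soft gels (0.31, SE 0.070, adjusted p = 0.0115), where 0.253% of all genes were called. This call was not followed through fits with a library left out.

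Of the 22 genes of the Hippo pathway and the TEAD family, 8 were called lower, 1 was called higher and 13 were not called, with a median of -0.11, beside 8.63% called and 4.85% called lower over all genes. Yap1 itself measured 212 to 244 CPM in soft and 208 to 227 CPM in stiff libraries (0.025, SE 0.031, 95% interval -0.036 to 0.086, adjusted p = 0.725). Its paralogue Wwtr1, which encodes TAZ, gave -0.13 (SE 0.053, adjusted p = 0.129), and was called at -0.16 (adjusted p = 0.0370) when soft high replicate 2 instead of replicate 1 was out. Among the DNA-binding partners, Tead1 was lower (-0.13, SE 0.028, adjusted p = 0.000445), as were Tead4 (-0.24, SE 0.071, adjusted p = 0.0179) and Tead3 (-0.24, SE 0.075, adjusted p = 0.0249). Tead2 gave 0.024 (SE 0.044, adjusted p = 0.832). The call of Tead3 was lost in 5 and that of Tead4 in 3 of 17 leave-one-out fits (adjusted p up to 0.107 and 0.0849). Amotl1, like Amotl2 a scaffold that binds YAP, was lower (-0.29, SE 0.035, adjusted p = 1.25e-11). Nf2, which encodes the upstream Hippo activator merlin, was the gene called higher (0.13, SE 0.028, adjusted p = 0.000245), with 303 to 330 CPM in soft and 271 to 294 CPM in stiff libraries.

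**Figure D5:**
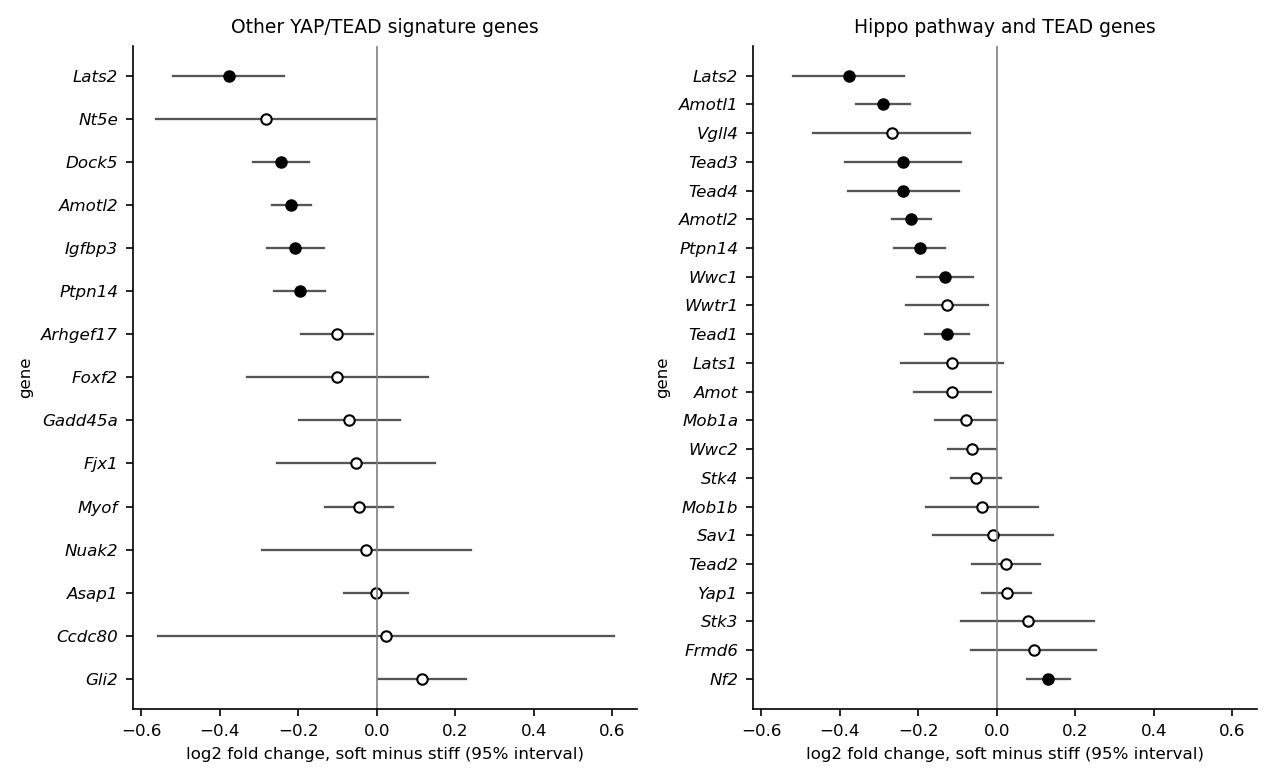
Log2 fold change of soft minus stiff averaged over AHA (horizontal axis) for the other YAP/TEAD signature genes (left) and the Hippo pathway and TEAD genes (right), with 95% intervals; filled points have an adjusted p under 0.05. In the left panel the 5 filled points lie below 0, and in the right panel Nf2 at 0.13 is the only filled point above 0.

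Relatives and binding partners of the 8 genes were read in the same way. Of 28 listed genes 22 were tested, 3 were called lower, 1 was called higher and the median was -0.078, against the same 8.63% called and 4.85% called lower over all genes. The lower genes were Zyx (-0.39, SE 0.037, adjusted p = 1.63e-14) and Lpp (-0.41, SE 0.037, adjusted p = 1.78e-12), LIM proteins of focal adhesions related to Ajuba, and Wisp1, which encodes the CCN family member CCN4 (-0.42, SE 0.10, adjusted p = 0.00258). The closer LIM relatives of Ajuba, Limd1 (-0.05, SE 0.064) and Wtip (-0.12, SE 0.071), were not called. The higher gene was Tyro3, a receptor of the Axl family (0.25, SE 0.061, adjusted p = 0.00194). Its ligand Gas6, shared with Axl, gave 0.01 (SE 0.11). Between high and low AHA on soft gels Zyx was called higher (0.33, SE 0.070, adjusted p = 0.00718). It was the 1 call among the 22, where 0.253% of all genes were called. This call was not followed through fits with a library left out.

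Over the 17 libraries the 28 pairs among them had Pearson r of 0.24 to 0.86 (median 0.65) on log2 CPM, and after the group means were removed r ran from -0.58 to 0.58 (median 0.060). The mean of their standardised log2 CPM ran from -1.38 to -0.23 in soft and from 0.40 to 0.94 in stiff libraries. The tested genes most like this mean were Krt18 (r = 0.97), Krt8 (0.97), Itga3 (0.97), Nes (0.97) and Phldb2 (0.97), and the same 5 led with a prior count of 0.5 in place of 2. Krt8 and Krt18 encode paired keratins, Itga3 an integrin subunit, Nes the filament protein nestin and Phldb2 a cortical protein near adhesions. Within the 8 soft libraries alone r was 0.91 for Krt18, 0.96 for Krt8, 0.85 for Itga3, 0.90 for Nes and 0.94 for Phldb2. Within the 9 stiff libraries alone it was 0.82, 0.25, 0.49, 0.67 and 0.23 in the same order of genes. All these r are over libraries that share the soft and stiff groups and are given as a description.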

How the data were processed

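Total RNA libraries (a pico-input mammalian kit) of 18 samples were sequenced. Per the labels and the processing notes of the submitters, the authors trimmed reads with Trim Galore 0.4.4, aligned them to mm10 with GSNAP and counted them per gene with HTSeq. The strand setting is not given in the sources used here. The deposited values are raw counts. Rows that name no gene (61.5% to 64.0% of each column) and 92 spike-in rows stayed out of library sizes and tests.

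Protein-coding genes of GENCODE M21 (21519 of 46078, with 935 identifiers unmatched) were filtered with filterByExpr (minimum count 10), scaled by TMM and fitted with 1 coefficient per group in edgeR 4.0.16 (glmQLFit, robust, and glmQLFTest, R 4.3.3), with Benjamini-Hochberg adjustment of the p-values of each contrast. As in the study, a soft high AHA library with a high spike-in share was left out. The common biological coefficient of variation was 5.35%. Replicates were numbered in accession order and differed beyond sampling noise in all 18 pairs (chi-square per degree of freedom 1.82 to 3.07). The fit was tested on simulated data. Log2 CPM used a prior count of 2.

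Alternatives were RLE factors, other filters, all biotypes, all libraries, only the compared groups, DESeq2 1.42.0, each library left out and, chosen after seeing the data, another soft high AHA library left out. Named were the 8 members, the called genes of the lists with the lowest adjusted p (up to 8 of the signature, 5 of each other list), Yap1, Wwtr1, the TEAD genes and the 5 genes most correlated with the members' mean. Limd1, Wtip, Gas6 and single marker genes were named after their values were seen. The members and lists were chosen with earlier results of these data known. Protein sequences were not used here.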

Additional observations from a re-analysis of the deposited data

Results flagged for a closer look

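Among the 16 sets of libraries tested for a sample far from the rest (each gene in its 8 soft and its 9 stiff libraries; the 6 groups of 3 or fewer are too small), 3 held such a sample, where chance gives about 1 in 20. Cyr61 was lowest among stiff libraries in stiff mid replicate 3, at 172 CPM against 188 CPM in the next library. F3 was highest among soft libraries in soft high replicate 2, at 49.6 CPM against 38.2 CPM in the next. F3 was highest among stiff libraries in stiff low replicate 1, at 56.1 CPM against 48.4 CPM in the next. No member was called in the test of a stiffness effect that differs between AHA concentrations.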

How the results depend on the processing

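Fits without soft high replicate 2 or 3 held 1 soft high library, assumed to vary like the other groups. The averaged soft minus stiff calls were 6 of 8 in the main fit and 6 to 7 when each library was left out (Ankrd1 was added without soft high replicate 2), and the members' median ran from -0.41 to -0.36 over those fits and was -0.45 with soft high replicate 2 left out in place of replicate 1. At high AHA the main count of 2 was 1 with genes of at least 2 counts in all, 1 with all gene biotypes, 1 with only the groups compared, 4 with all 18 libraries, 4 with soft high replicate 2 left out in place of replicate 1, and 0 to 2 when a library was left out. The soft high minus stiff low count of 3 was 5 with replicate 2 left out in place of replicate 1 and 1 to 3 when a library was left out. The high minus low AHA count on soft gels of 0 was 0 to 1 when a library was left out. Counts over all genes moved too: 115 at high AHA became 339 with all 18 libraries, 392 and 257 with replicate 2 or 3 left out in place, and 51 without stiff high replicate 3. For soft high minus stiff low 145 became 338, 325, 267 and 69 to 151 (69 and 88 without soft high replicate 2 or 3, 83 without stiff low replicate 3). At low AHA 408 became 245 without soft low replicate 1, at mid AHA 385 became 256 and 219 without soft mid replicate 1 or 2, and 34 for high minus low AHA on soft gels became 8 without soft low replicate 1, 2 without soft high replicate 2 and 69 without replicate 3. Between high and low AHA, 1 gene on stiff gels became 9 with genes of at least 2 counts in all, 11 with only the groups compared and 0 to 10 when a library was left out, and 15 averaged over stiffness became 28 with that filter, 28 with all biotypes, 46 with DESeq2 and 5 to 65 when a library was left out. Between mid and low AHA, 0 on soft gels became 4 with that filter, 8 with only the groups compared and 0 to 7 when a library was left out (7 without soft mid replicate 3), and 0 on stiff gels became 0 to 1. Between high and mid AHA, 9 on soft gels became 16 with that filter, 5 with soft high replicate 2 left out in place and 4 to 12 when a library was left out (4 without soft high replicate 2), and 1 on stiff gels became 10 with that filter, 7 with only the groups compared and 0 to 5 when a library was left out (5 without stiff high replicate 1).

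Values that turned sign were uncalled in both fits. When a library was left out, Ctgf at mid AHA ran from -0.12 to 0.018, and at high AHA Ankrd1 from -1.10 to 0.36, Tgfb2 from -0.25 to 0.11 and F3 from -0.51 to 0.064. For high minus low AHA on soft gels Cyr61 ran from -0.051 to 0.056 (0.0061 with all biotypes) and Crim1 from -0.0087 to 0.18 (-0.059 and -0.00018 with replicate 2 or 3 left out in place), and Ankrd1 was -0.0028 with replicate 2 left out in place. For soft high minus stiff low Ctgf ran from -0.021 to 0.045 (-0.012 with all 18 libraries, -0.023 and -0.026 with replicate 2 or 3 left out in place) and Ankrd1 from -1.15 to 0.31. The cause was not tested. DESeq2 gave Axl an adjusted p of 0.0652 for soft high minus stiff low, and no adjusted p for Ankrd1 in any contrast between stiffnesses, for Axl, Crim1, F3 and Tgfb2 at high AHA, or for several members in the contrasts of high with low or mid AHA on soft gels and all 8 but Ajuba in high minus low AHA averaged over stiffness. No paired analysis was possible because the labels give no replicate number shared between groups. Ankrd1 had 4 to 24 counts per library.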
